A study of Mus musculus with 2 samples.

Results

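The mitochondrial ribosome was followed from brown preadipocytes (D0) to brown adipocytes (D7) through the mRNAs of its proteins. Its genes were taken by symbol from a deposited RNA-Seq table, as all rows with values whose symbol starts with Mrpl or Mrps and a number. This gave 76 genes among 23361 rows with values, 47 named for the large subunit (Mrpl) and 29 for the small subunit (Mrps), on 17 chromosomes. None of the 76 was listed at 0 in either library. The rule used symbols only and no measured value.

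Mitochondria carry their own ribosomes, which translate the few proteins that mitochondrial DNA still encodes, all of them subunits of the respiratory chain and of ATP synthase. The ribosomal RNAs come from mitochondrial DNA, but every protein of the mitochondrial ribosome is encoded in the nucleus, made by cytosolic ribosomes and imported. Many of these proteins descend from bacterial ribosomal proteins, while others were added in the mitochondrial lineage. Brown adipocytes are rich in mitochondria, where uncoupling of respiration produces heat.

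Each stage was represented by 1 library, so the series held 2 libraries. The cells came from interscapular brown fat of newborn C57BL/6 mice, were named primary cultures in the labels, and shared all steps up to day 0. According to the labels, they grew in DMEM with 20% FBS and were then kept for 4 days, before induction, with T3 at 1 nM, insulin at 0.1 μM and FBS lowered to 10%. From day 0 they also received indomethacin (0.125 mM), dexamethasone (2 μg/ml) and IBMX (0.5 mM) for 2 days. The insulin and T3 medium was kept until D7, the adipocyte stage. The paper's methods give other insulin, dexamethasone and serum concentrations and describe immortalization with large T, and whether animals were pooled is not stated in the sources used here.

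The adipocyte markers were far higher at D7, with 7 of 7 raised by at least 2.0-fold. The brown markers Ucp1, Cidea and Elovl3 were listed at 0 at D0 and had FPKM of 4.57, 24.4 and 34.2 at D7. Of 11 macrophage symbols, 10 had values, all 10 rose (9 of them at least 2.0-fold), their summed FPKM was 146 at D0 and 515 at D7, and none was at 0. Summed FPKM of 6 proliferation genes was 97.2 at D0 and 45.3 at D7, and that of 7 preadipocyte or fibroblast genes was 4143 and 2071. Within that list Col1a1 and Thy1 were at least 2.0-fold lower at D7, while Dlk1 (3.57 and 38.5) and Cd34 (1.85 and 15.4) were at least 2.0-fold higher, and Pdgfra had a ratio of 0.973. Endothelial markers summed to 0.995 and 2.32, with Tie1 at 0 in both libraries. Muscle markers summed to 45.4 and 1.78, nearly all of it Acta1, with Ckm and Myod1 at 0. The part of these other cells in the values below was not tested, and in bulk RNA fewer cells of a type and less RNA per cell cannot be told apart.

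FPKM counts fragments relative to the length of the transcript (in kb) and to 1000000 reads, so it can be compared between genes of different length. A value here rests on a denominator of 21471470 fragments at D0 and 18265702 at D7, fitted on genes with a single exon. These denominators were not counted, and the paper reports larger totals of mapped reads. For the 76 genes the fit gave between 120 and 1429 fragments per gene at D0 (median 563) and between 137 and 3153 at D7 (median 735). These numbers are approximate for genes with several exons. Every interval below is an exact 95% interval on these fragments. It covers counting error only and compares the 2 libraries, not the stages. Since nothing was replicated, differences were not tested and p-values are not given. A gene was called higher at a D7 to D0 ratio of at least 2.0 and lower at a ratio of at most 0.5, the threshold of the study's methods.

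The 4 promoters below belong to the genes on which the extremes of the comparison rest, namely 3 of the largest increases and the only called decrease. The sequences are the 250 bases before the RefSeq start site on GRCm38.p6, 5′ to 3′ on the strand of the gene, with capitals for a motif of nuclear respiratory factor 1 or of the ETS factor GABPA.

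Mrpl12, chr11:120484387-120484636, plus strand: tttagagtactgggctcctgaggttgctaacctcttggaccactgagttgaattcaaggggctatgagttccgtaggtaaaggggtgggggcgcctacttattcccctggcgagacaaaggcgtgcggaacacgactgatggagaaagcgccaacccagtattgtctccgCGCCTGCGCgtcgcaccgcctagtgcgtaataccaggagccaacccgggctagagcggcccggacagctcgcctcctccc

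Mrpl42, chr10:95501950-95502199, minus strand: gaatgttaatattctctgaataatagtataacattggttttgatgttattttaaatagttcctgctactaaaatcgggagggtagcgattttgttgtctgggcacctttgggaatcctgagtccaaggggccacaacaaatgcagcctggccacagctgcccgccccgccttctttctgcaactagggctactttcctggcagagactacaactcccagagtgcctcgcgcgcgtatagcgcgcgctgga

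Mrps22, chr9:98601680-98601929, minus strand: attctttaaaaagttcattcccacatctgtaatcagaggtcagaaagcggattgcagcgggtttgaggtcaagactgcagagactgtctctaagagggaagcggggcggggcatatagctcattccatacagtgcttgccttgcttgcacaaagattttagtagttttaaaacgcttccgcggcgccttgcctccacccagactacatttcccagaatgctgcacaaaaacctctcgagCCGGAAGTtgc

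Mrpl52, chr14:54426659-54426908, plus strand: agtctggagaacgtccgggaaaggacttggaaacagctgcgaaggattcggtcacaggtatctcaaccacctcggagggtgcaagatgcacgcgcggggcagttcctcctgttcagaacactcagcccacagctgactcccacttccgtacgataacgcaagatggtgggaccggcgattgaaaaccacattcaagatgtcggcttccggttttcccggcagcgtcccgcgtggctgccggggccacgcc

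Capitals appear in Mrpl12 (GCGCANGCG, read on the other strand) and in Mrps22 (CCGGAAGT), and neither motif occurs in these bases of Mrpl42 or Mrpl52.

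The mRNAs of the mitochondrial ribosome were mostly higher in adipocytes, by a modest factor. FPKM was higher at D7 in 70 of 76 genes, where 47.4% of all 10773 genes that reached FPKM of 1 in both libraries were higher. When both libraries were scaled to a common median over all rows, 18 of the 70 fell below a ratio of 1. At that setting 52 members and 28.9% of the 10773 genes were above 1. The other scalings moved fewer members. Centring on the median ratio of the 10773 genes, TPM and the upper quartile left 72, 70 and 69 members above 1. The median log2 ratio of the 76 genes was 0.61 (a ratio of 1.52), against -0.05 in all 10773 genes. The middle 50% of the genes lay between 0.29 and 0.82 on the log2 scale. Counting error was small beside these differences, since 66 of the 76 intervals lay above 1, 8 included 1 and 2 lay below 1. The median of the 76 genes lay 0.65 in log2 units above that of all genes, a distance that scaling of the libraries leaves as it is by construction.

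Few of them passed the threshold. Of the 76 genes, 12 were called higher (15.8%) and 1 was called lower. Among all genes that reached FPKM of 1 in both libraries, 11.8% were called higher and 9.86% lower, and among the 14986 genes above 0 in both libraries these shares were 18.5% and 13.2%. The share of members called higher was thus near that of all genes, while the share called lower was 1 of 76. Most members (58) had a ratio above 1 and below 2.0. After scaling to the library medians 3 genes were called higher and 1 lower, so that the higher genes made up 75% of the calls in place of 92.3%. Of all genes that reached FPKM of 1 in both libraries, 7.79% were then called higher and 18.7% lower.

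**Figure D1:**
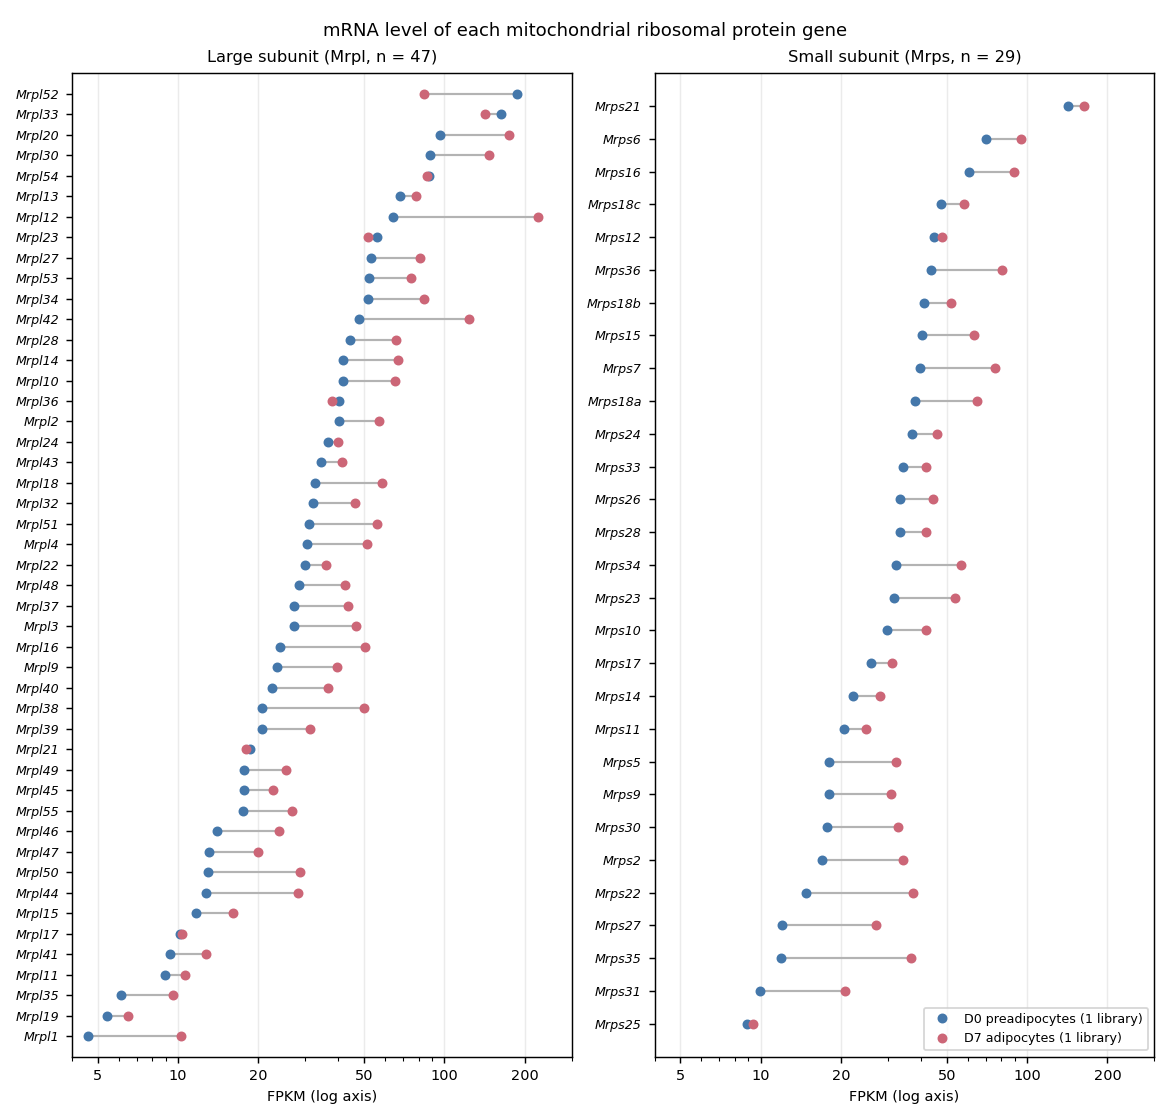
FPKM on a log axis for each of the 76 genes, in order of the D0 level, with the large subunit on the left and the small subunit on the right. Each gene has 1 value at D0 and 1 at D7, and the D7 point lies to the right for 70 genes and to the left for 6, all of the large subunit. After scaling to the library medians 18 of the 70 turn to the left, and 28.9% of all genes that reached FPKM of 1 in both libraries are above a ratio of 1.

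The median log2 ratio was 0.61 for the 47 Mrpl genes and 0.56 for the 29 Mrps genes, a difference of 0.05 that was not tested. Within the subunits the log2 ratios had an SD of 0.48 (Mrpl) and 0.39 (Mrps). Called higher were 7 of 47 Mrpl genes (14.9%) and 5 of 29 Mrps genes (17.2%). Both shares were near those of all genes, 11.8% at FPKM of 1 in both libraries and 18.5% above 0 in both. Summed FPKM rose from 1824 to 2583 for Mrpl (a ratio of 1.42) and from 995 to 1459 for Mrps (a ratio of 1.47). The 6 genes with a ratio below 1 were all Mrpl genes, and the lowest Mrps ratio was 1.05. After scaling to the library medians 11 Mrps genes had a ratio below 1, a setting in which 28.9% of all genes that reached FPKM of 1 in both libraries were above 1. With Mrps18a and Mrps30 moved to the large subunit, where their proteins are known to sit, and Mrps36 left out, the Mrps median was 0.46 and the difference 0.16.

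**Figure D2:**
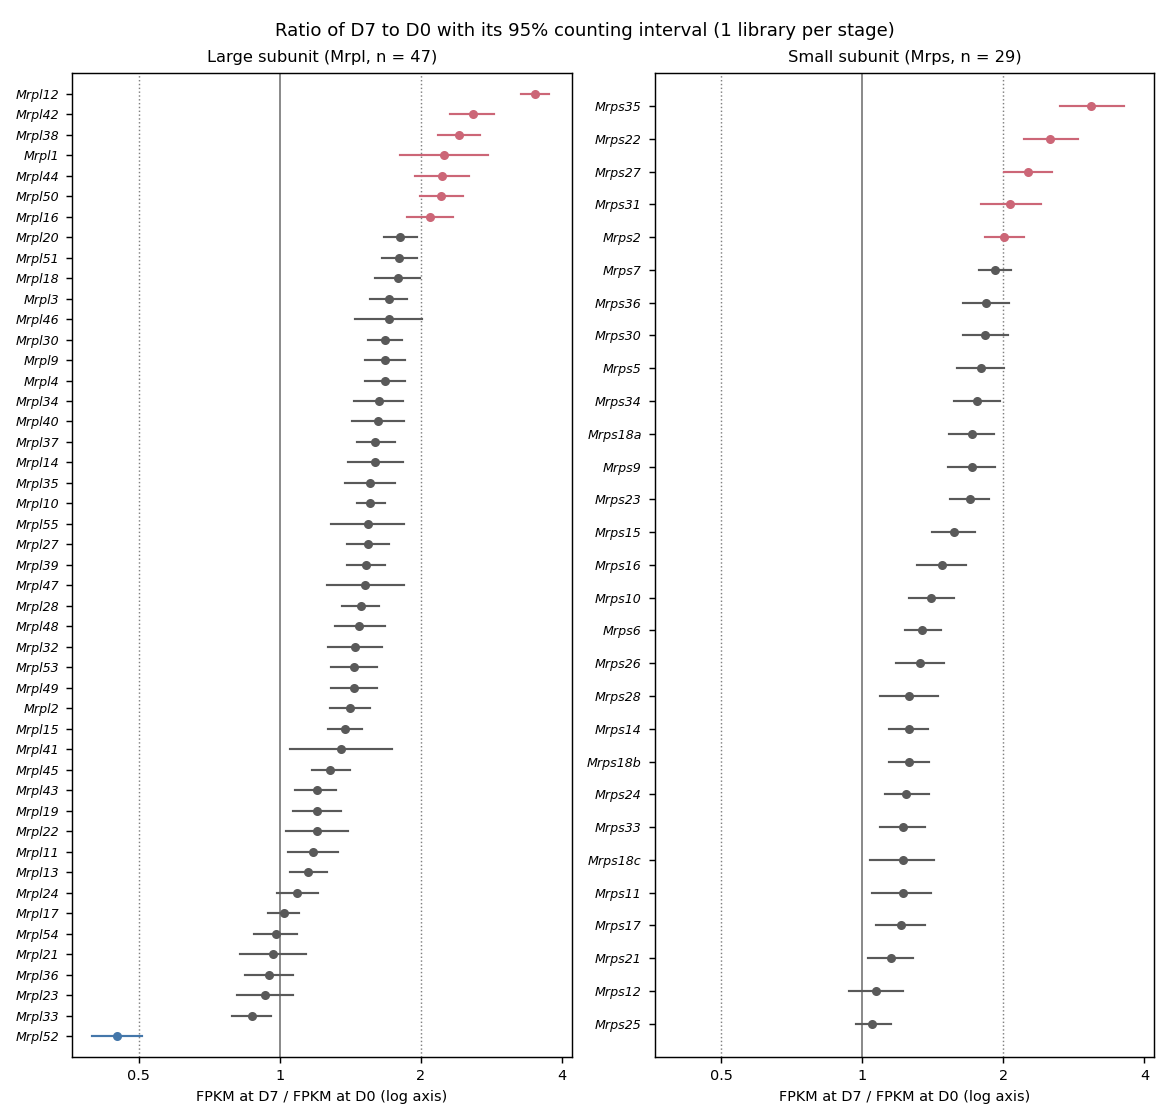
Ratio of FPKM at D7 to D0 for each gene with its exact 95% counting interval, on a log axis, with the 12 genes called higher in red, Mrpl52 in blue and dotted lines at 0.5 and 2. The intervals of 6 of the 12 red genes lie wholly above 2. After scaling to the library medians 18 genes with a ratio above 1 fall below it, and 28.9% of all genes that reached FPKM of 1 in both libraries are above 1.

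The largest increase was that of Mrpl12, the homologue of the flexible stalk protein that brings translation factors to the bacterial ribosome. Its FPKM was 64.2 at D0 and 225 at D7, or 3.51 times as high (95% interval 3.27 to 3.76). It was the gene with the ninth highest level at D0 and the highest at D7. The other proteins of the stalk base rose less. Mrpl10, which anchors the stalk, had FPKM of 41.7 and 65.2, a ratio of 1.56 (1.46 to 1.68). Mrpl11, which lies beside it, had FPKM of 8.98 and 10.6, a ratio of 1.18 (1.04 to 1.33). The intervals of these 3 neighbouring proteins did not overlap. The Mrpl12 locus overlaps the noncoding gene Gm16755 on the other strand, and use of strand in counting is not stated.

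Of the other large subunit genes called higher, 4 encode proteins added in the mitochondrial lineage. Mrpl42 had FPKM of 48.0 at D0 and of 124 at D7, and a ratio of 2.58 (2.31 to 2.87). Mrpl38 had 20.7 and 50, a ratio of 2.41 (2.18 to 2.68). The intervals of these 2 genes, like that of Mrpl12, lay wholly above 2. Mrpl44, a protein with a ribonuclease III fold, had 12.8 and 28.3, a ratio of 2.22 (1.94 to 2.53), and Mrpl50 had 13.0 and 28.6, a ratio of 2.21 (1.99 to 2.46). For both, the lower bound of the interval was under 2. The locus of Mrpl44 also overlaps the coding gene Wdfy1 on the other strand, whose own ratio was 0.748. A processed pseudogene, Gm6419, matches Mrpl42 at 97.2% over 216 bp, so the value of Mrpl42 is uncertain.

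The remaining 2 called genes of the large subunit have bacterial counterparts. Mrpl1 builds the mobile stalk on the side where tRNAs leave the ribosome. It had the lowest level of all 76 genes at D0, with FPKM of 4.59, and reached 10.3 at D7, with a ratio of 2.24 (1.81 to 2.78). Mrpl16 had FPKM of 24.1 and 50.2, a ratio of 2.09 (1.87 to 2.34). Both intervals reached below 2.

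In the small subunit, Mrps35 led with FPKM of 11.9 at D0 and of 36.7 at D7, and a ratio of 3.08 (2.64 to 3.61). Mrps22 had 14.8 and 37.3, a ratio of 2.52 (2.21 to 2.89), and Mrps27, an RNA-binding protein of the pentatricopeptide repeat family, had 12 and 27.0, a ratio of 2.26 (2.01 to 2.54). The intervals of these 3 genes lay wholly above 2, and noncoding genes overlap the loci of Mrps22 and Mrps27 on the other strand. Mrps31 had FPKM of 9.99 and 20.7, a ratio of 2.07 (1.79 to 2.41). All 4 encode proteins of the mitochondrial lineage. Mrps2, a protein shared with bacteria, had 17.0 and 34.2, and its ratio of 2.01 (1.83 to 2.21) was the closest to the threshold from above. The closest from below was Mrps7, also shared with bacteria and known to start the assembly of the head of the small subunit, with 39.5 and 75.7 and a ratio of 1.92 (1.77 to 2.08). The intervals of Mrps2 and Mrps7 overlapped.

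Mrpl52, a protein of the mitochondrial lineage in the large subunit, moved the other way. It had the highest level of all 76 genes at D0, with FPKM of 187, and ranked 11 at D7 with 84.0. The ratio was 0.450 (0.397 to 0.509), that is, 2.22-fold lower at D7, from 935 fragments at D0 and 353 at D7. It is the shortest but one of the 76 transcripts, with 412 bp. No annotated gene overlaps its locus, and no pseudogene with at least 97% identity over 90 bp was found for it. Without Mrpl52, no member was called lower.

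The other 5 genes with a ratio below 1 differed little between the libraries. Mrpl33 had FPKM of 163 at D0 and of 142 at D7, and a ratio of 0.871 (0.791 to 0.959), the only one of the 5 whose interval excluded 1. Mrpl23, which lines the exit of the peptide tunnel in bacteria, had 55.6 and 51.7, a ratio of 0.931 (0.811 to 1.07). The pseudogene Mrpl23-ps1 matches it at 100% over 540 bp, so the value of Mrpl23 is uncertain. The ratios of Mrpl36, Mrpl21 and Mrpl54 were 0.949, 0.969 and 0.982, and all 3 intervals included 1. The pseudogene D9Wsu149 matches Mrpl21 at 97.2% over 565 bp, so the value of Mrpl21 is uncertain as well.

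The smallest ratios of the small subunit stayed near 1. Mrps25 had FPKM of 8.86 at D0 and of 9.34 at D7, and a ratio of 1.05 (0.967 to 1.15). Mrps12, which lies at the decoding centre and is a known site of antibiotic resistance in bacteria, had 44.6 and 47.8, a ratio of 1.07 (0.938 to 1.22). Both intervals included 1, and both ratios, like that of Mrps21, were below 1 after scaling to the library medians. Mrps21 had FPKM of 142 and 163, a ratio of 1.15 (1.03 to 1.28). Mrps17, Mrps11 and Mrps18c followed with ratios of 1.21, 1.22 and 1.22, whose intervals overlapped those of Mrps21 and of each other. Pseudogenes match Mrps25 (Gm42933, 98.0% over 2070 bp) and Mrps21 (Gm6181, 97.3% over 264 bp), so the values of these genes are uncertain. The locus of Mrps25 also overlaps the coding gene Nr2c2.

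Mrps18a, Mrps18b and Mrps18c are 3 homologues of a single bacterial protein. Their D0 levels were close, with FPKM of 37.9, 41.1 and 47.7, and their D7 levels were 65, 51.8 and 58.0. Mrps18a, whose protein sits in the large subunit, thus went from the lowest of the 3 to the highest, with a ratio of 1.71 (1.53 to 1.91). The ratios of Mrps18b and Mrps18c were 1.26 (1.14 to 1.39) and 1.22 (1.04 to 1.42), and their intervals overlapped each other and not that of Mrps18a. A pseudogene matches Mrps18b at 99.8% and another matches Mrps18c at 97.8%, and the locus of Mrps18a overlaps Rsph9 on the other strand. Mrps30, also placed in the large subunit in spite of its name, had FPKM of 17.8 and 32.7, a ratio of 1.83 (1.64 to 2.05). Mrps36, now known as part of the 2-oxoglutarate dehydrogenase complex, had 43.6 and 80.1, a ratio of 1.84 (1.64 to 2.06), with 2 pseudogenes at 99% and 99.3% identity.

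A ribosome holds most of its proteins in equal numbers, but their mRNA levels spread widely. The highest FPKM was 40.7 times the lowest at D0 and 34.6 times at D7, and the SD of log2 FPKM was 1.08 and 1.02. The order of the levels was largely kept, with a Spearman correlation of 0.93 across the 76 genes between the libraries, against 0.86 across all 10773 genes. Genes of 1 library share its depth and are not independent replicates. At D0 the highest levels were those of Mrpl52, Mrpl33, Mrps21, Mrpl20 and Mrpl30, with FPKM of 187, 163, 142, 95.9 and 88.0. The first 3 also have the 3 shortest transcripts (412, 466 and 405 bp), for which the length correction weighs most.

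At D7 the order was Mrpl12, Mrpl20, Mrps21, Mrpl30 and Mrpl33, with FPKM of 225, 174, 163, 147 and 142. The lowest levels at D0 were 4.59 for Mrpl1, 5.42 for Mrpl19, 6.13 for Mrpl35, 8.86 for Mrps25 and 8.98 for Mrpl11. At D7 they were 6.50 for Mrpl19, 9.34 for Mrps25, 9.57 for Mrpl35, 10.3 for Mrpl1 and 10.4 for Mrpl17. The ratio was only weakly related to the level or the transcript length, with Spearman correlations of -0.24 with FPKM at D0 and 0.23 with length across the 76 genes.

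The genes were also grouped by the ancestry of the protein, after their values had been seen. Of 46 genes with a bacterial counterpart, 4 were called higher (8.70%), and of 27 genes of the mitochondrial lineage, 8 were called higher (29.6%) and 1 lower. Among all genes that reached FPKM of 1 in both libraries, 11.8% were called higher. After scaling to the library medians, 1 of the 46 and 2 of the 27 genes were called higher, beside 7.79% of all genes. The median log2 ratios were 0.55 and 0.70, with an SD of 0.38 and 0.55 among the genes, and the difference was not tested. In the small subunit, 4 of 10 genes of the mitochondrial lineage and 1 of 17 genes with a bacterial counterpart were called higher, with median ratios of 1.80 and 1.34 (1 of 10 and 0 of 17 called after scaling to the library medians). In the large subunit, 4 of 17 and 3 of 29 were called higher, and the median ratios were 1.53 and 1.52. Mrpl55, Mrps28 and Mrps36 were not placed in either group.

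**Figure D3:**
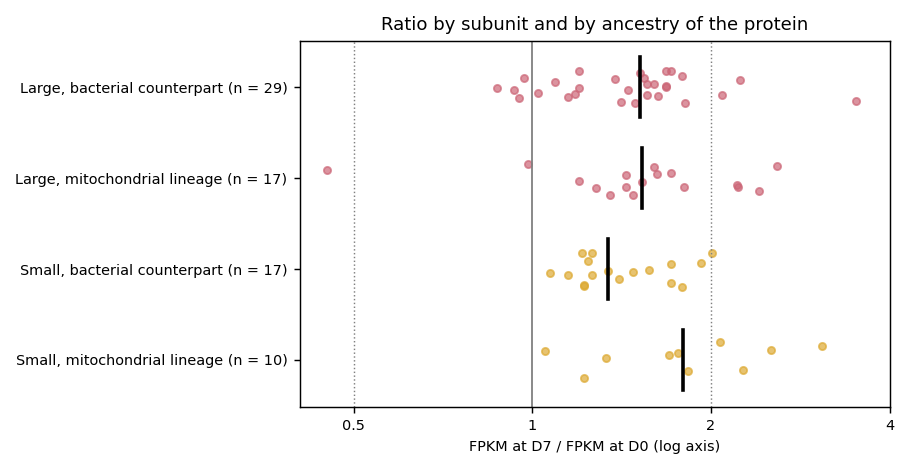
Ratio of FPKM at D7 to D0 on a log axis, with 1 point per gene and a black line at the median of each group and dotted lines at 0.5 and 2. The groups overlap, and the median is 1.80 for the 10 small subunit genes of the mitochondrial lineage and 1.34, 1.52 and 1.53 in the other groups.

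Outside the Mrpl and Mrps symbols, 7 more subunits had values. Ptcd3, a pentatricopeptide repeat protein of the small subunit, had FPKM of 15.6 at D0 and of 37.4 at D7, and a ratio of 2.39 (2.20 to 2.60), and it was the only one of the 7 called higher. Ict1, a peptidyl-tRNA hydrolase built into the large subunit, had 27.4 and 37.3, a ratio of 1.36. Chchd1 had 58.8 and 59.3, a ratio of 1.01 (0.889 to 1.14), and Mrp63 had 11.6 and 12, a ratio of 1.04. The lowest ratio was that of Gadd45gip1 at 0.907 (0.809 to 1.02), with FPKM of 20.9 and 19.0. The median log2 ratio of the 7 genes was 0.28, and it turned to -0.07 after scaling to the library medians, with 2 above and 5 below a ratio of 1. At that setting the median of all genes that reached FPKM of 1 in both libraries was -0.40.

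The factors that work with the ribosome had a higher median than its proteins. Of 16 measured translation factors of mitochondria, 8 were called higher and 0 lower, with a median log2 ratio of 0.83 (5 and 0 after scaling to the library medians, with a median of 0.48). Beside this, 11.8% of all genes that reached FPKM of 1 in both libraries were called higher and 9.86% lower. After that scaling these shares of all genes were 7.79% and 18.7%. Gfm1, the elongation factor that moves the ribosome along the mRNA, had FPKM of 18.4 and 65.4, a ratio of 3.54 (3.29 to 3.82). Pet112, of the complex that charges the glutamine tRNA, had 3.85 and 14.9, the highest ratio of the list at 3.86. Tufm, which delivers tRNAs, had 47 and 108, a ratio of 2.30 (2.16 to 2.44). The lowest were Mtfmt, which formylates the initiator tRNA, at 0.903 (0.741 to 1.10), and Mrrf, which recycles ribosomes, at 1.18 (1.05 to 1.32).

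Assembly and rRNA-modifying factors had a median close to that of the ribosomal proteins. Of 33 measured, 6 were called higher (18.2%) and 0 lower, with a median log2 ratio of 0.49. Called higher were 11.8% of all genes that reached FPKM of 1 in both libraries and 18.5% of those above 0 in both. After scaling to the library medians 2 assembly factors were called higher and 0 lower, with a median of 0.14, beside 7.79% and 18.7% of all genes. The highest ratios were 3.06 for Rpusd3, a putative pseudouridine synthase, and 2.67 for Mterfd2, and the lowest were 0.733 for Trmt61b, an RNA methyltransferase, and 0.846 for the helicase Dhx30. Of 26 measured genes of mitochondrial DNA upkeep, transcription and RNA processing, 2 were called higher (7.69%) and 0 lower. The 2 were Fastkd1 at 3.72 and Trmt10c at 2.34. The median of the 26 genes was 0.60, and after scaling to the library medians it was 0.25, with 1 called higher and 5 below a ratio of 1. The lowest ratios were 0.742 for Fastkd3 and 0.778 for Rexo2, as deposited.

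The aminoacyl-tRNA synthetases of mitochondria had a median log2 ratio of 0.59, with 2 of 19 called higher (10.5%, Fars2 at 2.65 and Nars2 at 2.06) and 1 lower. Of all genes that reached FPKM of 1 in both libraries, 11.8% were called higher and 9.86% lower. After scaling to the library medians the median of the synthetases was 0.23, and the balance of calls turned, with 1 higher and 3 lower. In all genes it turned as well, with 7.79% higher and 18.7% lower. The gene called lower as deposited was Lars2, with FPKM of 117 and 43.4 and a ratio of 0.371 (0.356 to 0.387). Gars and Kars, which serve the cytosol as well, had ratios of 0.611 and 0.560. Genes encoded by mitochondrial DNA, the rRNAs included, were not analysed here. Of 26 symbols searched for genes of mitochondrial DNA, 0 had values.

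The ribosomes of the cytosol went the other way. Of 77 Rpl and Rps genes, 74 were lower at D7 and 23 were called lower, with a median log2 ratio of -0.91 (71 called lower after scaling to the library medians). Of all genes that reached FPKM of 1 in both libraries, 9.86% were called lower as deposited and 18.7% after scaling. The ratio of the cytosolic genes ran from 0.106 for Rps27 and 0.147 for Rpl26 to 0.675 for Rpl24 and 1.08 for Rpl39l. Rpl10l and Rpl3l were listed at 0 in at least 1 library. FPKM of Rps27 (57.2 and 6.09) and Rpl26 (113 and 16.7) lay far below the list medians of 1109 and 603. Pseudogene matches were searched only for the 76 members, so they are unknown for this list. All 45 Nduf genes, most of them subunits of respiratory complex I, were higher at D7, and 28 were called (62.2%), with a median of 1.25. After scaling to the library medians 41 were higher and 18 called. Of all genes that reached FPKM of 1 in both libraries, 11.8% were called higher as deposited and 7.79% after scaling. The Nduf ratios ran from 1.14 for Ndufa4l2 and 1.18 for Ndufaf2 to 4.31 for Ndufs1 and 5.56 for Ndufv1. The median of the mitochondrial ribosomal proteins lay between these lists, at 0.61. The middle 50% of the cytosolic list (-1.02 to -0.80) did not meet that of the mitochondrial ribosomal proteins (0.29 to 0.82), while that of the Nduf genes (0.72 to 1.56) did.

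**Figure D4:**
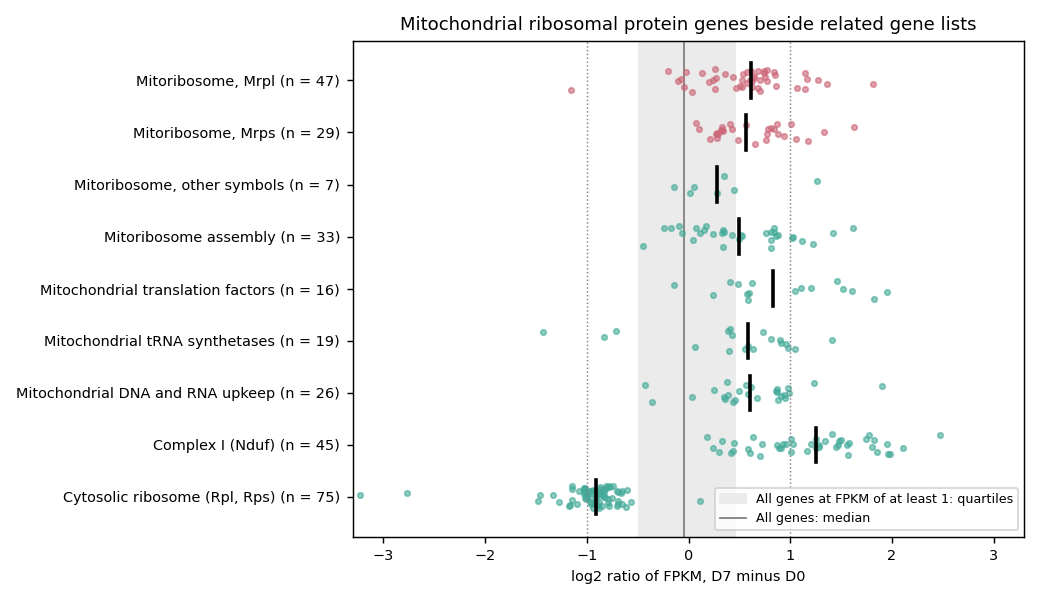
Log2 ratio of FPKM (D7 minus D0) for the Mrpl and Mrps genes and 7 other lists, with 1 point per gene above 0 in both libraries, a black line at each median, dotted lines at -1 and 1, and a grey band for the middle 50% of all genes that reached FPKM of 1 in both libraries. The medians run from -0.91 for the cytosolic ribosome to 1.25 for the Nduf genes, and all values move by -0.35 with scaling to the library medians.

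Several members start back to back with another gene, and where the 2 genes do not overlap, the sequence between the start sites is shared. Pairs were counted where the GENCODE start sites on opposite strands lay up to 1000 bp apart or overlapped by up to 500 bp. By these sites the gap between Mrpl46 and Mrps11 was -412 bp, an overlap, while their RefSeq start sites do not overlap. In total 24 pairs were counted. The stretches between RefSeq start sites are printed for 4 of them, for the pair with the highest partner ratio, a pair with a gene of the cytosolic ribosome, a pair of members, and a pair with a tRNA synthetase. They are read 5′ to 3′ on the strand of the member, on GRCm38.p6, with capitals for the ETS motif and for the CREB motif (TGACGTCA).

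Mrps27 and Ptcd2, chr13:99344679-99344785, plus strand: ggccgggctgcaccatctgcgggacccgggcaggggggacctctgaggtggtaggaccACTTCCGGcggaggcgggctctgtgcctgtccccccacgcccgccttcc

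Mrpl49 and Fau, chr19:6057756-6057946, minus strand: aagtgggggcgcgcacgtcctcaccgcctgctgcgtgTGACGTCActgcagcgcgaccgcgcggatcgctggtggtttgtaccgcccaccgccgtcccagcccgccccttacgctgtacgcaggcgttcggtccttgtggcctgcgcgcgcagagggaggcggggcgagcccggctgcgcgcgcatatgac

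Mrpl46 and Mrps11, chr7:78783090-78783130, minus strand: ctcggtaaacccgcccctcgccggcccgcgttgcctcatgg

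Mrps12 and Sars2, chr7:28741822-28741967, minus strand: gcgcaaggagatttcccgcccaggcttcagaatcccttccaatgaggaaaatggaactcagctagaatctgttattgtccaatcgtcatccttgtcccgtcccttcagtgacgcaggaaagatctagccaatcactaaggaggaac

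Capitals mark the ETS motif between Mrps27 and Ptcd2 (on the other strand) and the CREB motif between Mrpl49 and Fau, and none is marked in the other 2 stretches.

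Most partners had a lower ratio than their member. The median ratio was 1.55 for the 24 members and 0.895 for the 24 partners, of which 11 were above 1 and 13 below, beside a median of 0.968 in all genes that reached FPKM of 1 in both libraries and 47.4% of these above 1. The interval of the member lay above that of its partner in 14 pairs and below it in 1, and the intervals overlapped in 9. Whether pairs differ more than a member and any other gene was not tested. No partner was called higher and 1, Mtbp, was called lower. Among all genes that reached FPKM of 1 in both libraries, 11.8% were called higher and 9.86% lower. The highest partner ratio was in the pair of Mrps27 with Ptcd2, another mitochondrial pentatricopeptide repeat gene, at 2.26 (2.01 to 2.54) and 1.97 (1.74 to 2.23).

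Mrpl49 and Fau, which encodes a ubiquitin-like protein fused to a protein of the cytosolic ribosome, differed in direction. The ratios were 1.44 (1.29 to 1.61) for Mrpl49 and 0.630 (0.612 to 0.649) for Fau. Mrpl51 and Ncapd2, a condensin subunit used in mitosis, had ratios of 1.80 and 0.597, and Mrpl13 and Mtbp had 1.15 and 0.347. After scaling to the library medians, Mrpl13 fell below 1. In these 3 pairs the intervals did not overlap. Mrpl46 (1.71, 1.45 to 2.01) and Mrps11 (1.22, 1.05 to 1.40), both members, had intervals that just missed each other, and their loci overlap. Mrps12 and Sars2, the mitochondrial seryl-tRNA synthetase, had 1.07 and 1.32 with overlapping intervals. The only partner whose interval lay above that of its member was Ndufs6 of complex I, at 1.82 (1.65 to 2.01) beside Mrpl36 at 0.949 (0.842 to 1.07).

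**Figure D5:**
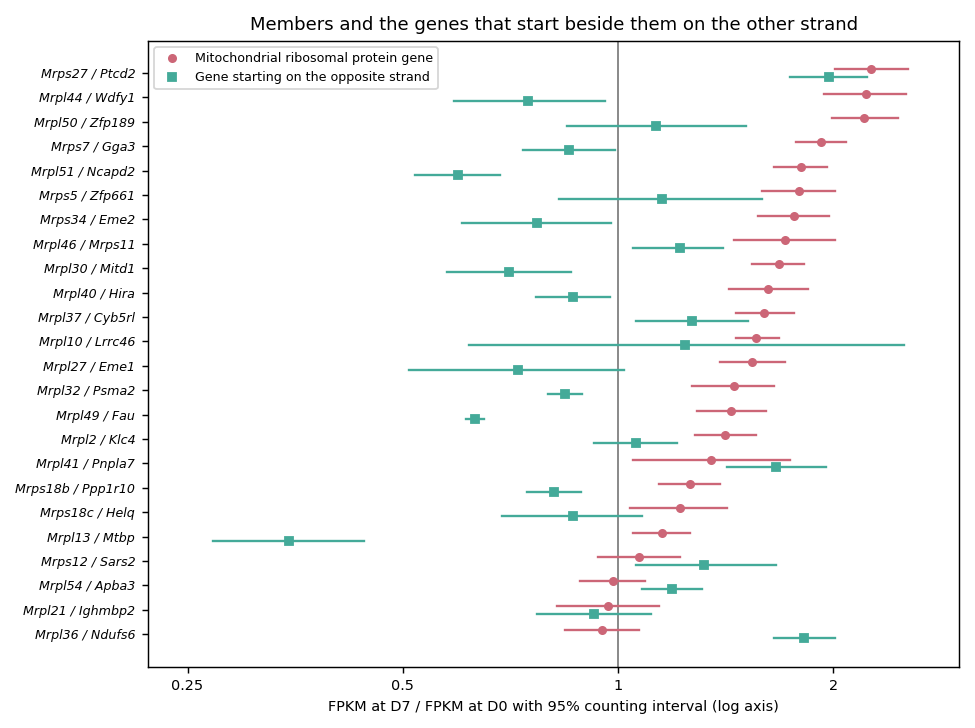
Ratio of FPKM at D7 to D0 with exact 95% counting intervals for 24 pairs of genes that start back to back, on a log axis, ordered by the ratio of the member (for Mrpl46 and Mrps11 both genes are members). Circles are members and squares their partners, and the circle's interval lies to the right of the square's in 14 pairs and to the left in 1.

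RefSeq promoter windows, from 250 bases before to 50 after the start site, were found for 67 of the 76 genes, and 9 had none, Mrps35 among them. Motifs were chosen after the values were seen and searched on both strands. The letters GCGCANGCG, a motif of nuclear respiratory factor 1, occurred in 15 of the 67 windows (22.4%), against 15.1% of the windows of genes that reached FPKM of 1 in both libraries and 9.02% of all 16328 windows. CCGGAAGT, bound by ETS factors such as GABPA, occurred in 11 (16.4%, against 9.46% and 5.44%), and AAGATGGCG, a motif of YY1, in 8 (11.9%, against 3.62% and 2.03%). At least 1 of these 3 was found in 32 windows (47.8%, against 25.8% and 15.2%).

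The AAGGTCA motif of the oestrogen-related receptors was found in 4 windows (5.97%, against 2.78% and 3.93%), the E-box CACGTG in 5 (7.46%, against 10.9% and 8.25%) and TGACGTCA in 2 (2.99%, against 3.35% and 2.37%). In Mrpl12 this receptor motif, in Mrpl42 the YY1 motif and in Mrpl52 the ETS motif lie after or across the start site, outside the bases printed above. The median log2 ratio was 0.61 for members with and 0.61 for members without the nuclear respiratory factor 1 motif, 0.62 and 0.61 for the ETS motif, and 0.66 and 0.60 for the YY1 motif. It was 0.43 and 0.61 for the receptor motif, 0.50 and 0.62 for the E-box and 0.79 and 0.61 for TGACGTCA, which rest on 4, 5 and 2 members with the motif. A match of letters is a description of the window and not a binding site.

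Members with and without overlapping genes had similar medians. In 19 members the locus overlaps another coding gene, and their median log2 ratio was 0.57, with 1 called higher (5.26%) and 0 lower. In the 41 members with no annotated gene over the locus, the median was 0.62, and 8 were called higher (19.5%) and 1 lower. Of all genes that reached FPKM of 1 in both libraries, 11.8% were called higher and 9.86% lower. The difference in calls between the 2 groups was not tested. In 16 members a processed pseudogene matched the transcript at 97% or more over at least 90 bp, among them Mrpl42, and none of the other genes called in either direction was among the 16.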

How the data were processed

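Libraries of brown preadipocytes (D0) and brown adipocytes (D7) were sequenced on an Illumina instrument. According to the paper, the authors removed duplicate and rRNA reads, aligned the rest with SOAP2 (up to 5 mismatches) to mm10 and gene sequences and gave each gene 1 deposited FPKM value per library. The submitters' processing notes name Bowtie2 instead. Of 27324 rows, 3963 had no value. Second strands were degraded, but use of strand in counting is not given in the sources used here.

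FPKM ratios (D7 to D0) were computed as deposited, without a pseudocount. With 179 bp taken from the length of 590 single-exon genes at D0 and 182 bp at D7, 100% of values of up to 20 fragments (73 and 75) lay within 0.1 of a whole number, and 14.5% and 20.0% with shuffled lengths. The FPKM of 1 fragment at D7 was 1.18 times that at D0. Intervals are exact Clopper-Pearson intervals. With 1 library per stage no test was possible. Scripts were tested on simulated data.

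Members, lists, alternatives and named genes were chosen with earlier results of these data known. Named are all members past 2.0-fold, the 6 highest and 6 lowest ratios of each subunit, the 5 highest and lowest levels, members with a particular place or role, and the 2 highest and 2 lowest ratios of each other list. Other genes, such as partners of back to back pairs, were named after their values were seen. Transcript lengths, overlaps and pseudogenes came from GENCODE M21, and promoters from RefSeq. Alternatives were median centring, a floor of 0.01 with the library median, TPM, the upper quartile, pseudocounts of 0.1 and 1, filters at FPKM of 1 and at 100 fragments, a 1.5-fold threshold, summing of rows per symbol, and placing genes by the subunit of the protein. Python 3.11.15, numpy 2.4.6, pandas 2.3.3 and scipy 1.17.1 were used.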

Additional observations from a re-analysis of the deposited data

How the results depend on the processing

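With values under 0.01 set to 0.01 and each library divided by its median, 3 genes were higher by at least 2.0-fold (Mrpl12, Mrpl42 and Mrps35) in place of 12. The median log2 ratio was 0.26 for all 76 genes, 0.26 for Mrpl and 0.21 for Mrps, and the log2 ratio of summed FPKM was 0.17 in place of 0.52. By construction this setting moves the median of all genes with FPKM of at least 1 by -0.35. It left 52 members above a ratio of 1 and 24 below, where 28.9% of all these genes were above 1, 7.79% were called higher and 18.7% lower. The 18 members that turned were Mrpl11, Mrpl13, Mrpl17, Mrpl19, Mrpl22, Mrpl24, Mrpl43, Mrps11, Mrps12, Mrps14, Mrps17, Mrps18b, Mrps18c, Mrps21, Mrps24, Mrps25, Mrps28 and Mrps33, none of them called. At a 1.5-fold threshold 39 genes were higher, and the share of all genes at this threshold was not computed. Median centring, both filters, the pseudocount of 0.1 and summing of rows each kept the 12 called genes. TPM and the upper quartile each gave 11, without Mrps2, and the pseudocount of 1 gave 10, without Mrps2 and Mrps31. Members above a ratio of 1 numbered 72 with median centring, 70 with TPM and 69 with the upper quartile. Mrpl52 was the only gene called lower in every setting run, and no called gene changed direction. With 1 library per stage no replicate could be left out, so the spread between cultures is unknown. No paired analysis was possible because each stage has 1 library. Depth limits the gene with the fewest fragments, Mrpl41, to an interval of 1.05 to 1.74.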
